A study of Mus musculus with 8 samples.

Results

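Intercalated cells of the collecting duct carry out the last adjustment of urinary acid. The genes described here are 10 of the genes that do this work: the anion exchangers Slc4a1 and Slc26a4, the transcription factor Foxi1, the proton pump subunits Atp6v1b1, Atp6v1g3, Atp6v0a4 and Atp6v0d2, the ammonia transporters Rhbg and Rhcg, and the carbonic anhydrase Car2. They were chosen by name, and every array probe that the scanner files assign to them was used. This gave 11 probes out of 55681, with 2 for Atp6v0d2 and 1 for each other gene. Among the 25127 genes and unnamed transcripts tested all 10 were present.

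Total RNA came from whole kidneys of CD-1 mice, an outbred stock. The 4 samples of the tacrolimus group (TAC) came from mice given tacrolimus, a calcineurin inhibitor, at 1 mg/kg per day over 28 days, and the 4 of the control group (CTL) from mice given physiological serum. No genetic change or further agent is named for either group, and neither age nor sex is stated in the sources used here. The labels number the samples without saying which animal each came from, so that the p-values reflect only how far these samples spread, which may in part be technical.

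In a type A intercalated cell, carbonic anhydrase makes protons and bicarbonate from carbon dioxide and water. A vacuolar proton pump (V-ATPase) at the apical membrane secretes the protons, and the exchanger encoded by Slc4a1 returns the bicarbonate to the blood. Type B cells work the other way round and put bicarbonate into the urine through pendrin, encoded by Slc26a4. Ammonia passes the cells through Rhbg and Rhcg and buffers the secreted acid, and Foxi1 is required for the identity of both cell types. Distal renal tubular acidosis, a failure of acid secretion in this segment, is a recognised complication in patients given calcineurin inhibitors. The comparison asks whether RNA of this machinery differed in the kidneys of treated mice.

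Each RNA was hybridised to a 1-colour array, on which a 60-base probe reports a transcript as fluorescence. By the scanner's criterion, 64.0% to 69.8% of each array's spots, controls aside, were brighter than background, and none was saturated. All 11 probes of these genes met that criterion on all 8 arrays, so that no value here is a bound set by background. All arrays lay on 1 slide, with row 1 holding the controls and row 2 the treated samples, and row and treatment cannot be told apart. The replicate number is the slide column in both rows. A level is the log2 intensity relative to the 75th percentile of its own array, and a difference is TAC minus CTL in log2 units. Probes bind with different strength, so levels are compared between arrays and never between genes.

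Probe sequences are shown for the gene whose groups separated and for the pump subunit measured at 2 places, since the meaning of those values depends on what was hybridised. Both are as deposited, 5′ to 3′, in the sense of the transcript.
Atp6v1b1: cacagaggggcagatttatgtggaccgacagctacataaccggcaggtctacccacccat
Atp6v0d2: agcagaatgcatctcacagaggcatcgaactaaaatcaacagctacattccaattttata

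The Atp6v1b1 probe is placed by the array annotation on the plus strand of chromosome 6 of mm9 from 83706880 to 83707858. Its 60 bases cover 979 genomic bases, so that it bridges a splice junction. The Atp6v0d2 probe lies on the minus strand of chromosome 4 from 19805367 to 19805426, and the further probe of that gene from 19804304 to 19804363. Of the other probes, those of Slc4a1 and Foxi1 lie on chromosome 11 (102210256 to 102210315 and 34104352 to 34104411) and those of Car2 and Rhbg on chromosome 3 (14900206 to 14900265 and 88047265 to 88047324). Slc26a4 was read on chromosome 12 from 32204766 to 32204825, Rhcg on chromosome 7 from 86738278 to 86738337, Atp6v0a4 on chromosome 6 from 37998490 to 37998549, and Atp6v1g3 on chromosome 1 from 140185743 to 140185802. Exon and UTR annotation of mm9 was not used here.

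None of the 10 genes passed the test across all genes (limma, adjusted p from 0.234 to 0.883), where 0.227% of all genes did. Their differences ran from -0.16 for Atp6v0a4 to 0.26 for Atp6v1b1, with 6 above and 4 below 0 and a median of 0.09, against a median of -0.05 over all genes tested. The median of the 10 was 0.037 with median scaling (-0.11 over all genes) and 0.053 without control replicate 3. The median size of a difference, whatever its sign, was 0.14 in these genes and 0.16 over all genes. At an unadjusted p under 0.05 stood 1 of the 10, Atp6v1b1, which was higher. Over all genes 15.5% did so, 7.04% higher and 8.42% lower. The 95% intervals of the 10 reached from a fold of 0.721 to one of 1.39. Of the 10 intervals 9 included no difference, so that for these genes neither a small change in one direction nor in the other was resolved with 4 arrays per group. In whole-kidney RNA, fewer intercalated cells and less RNA per cell cannot be told apart.

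**Figure D1:**
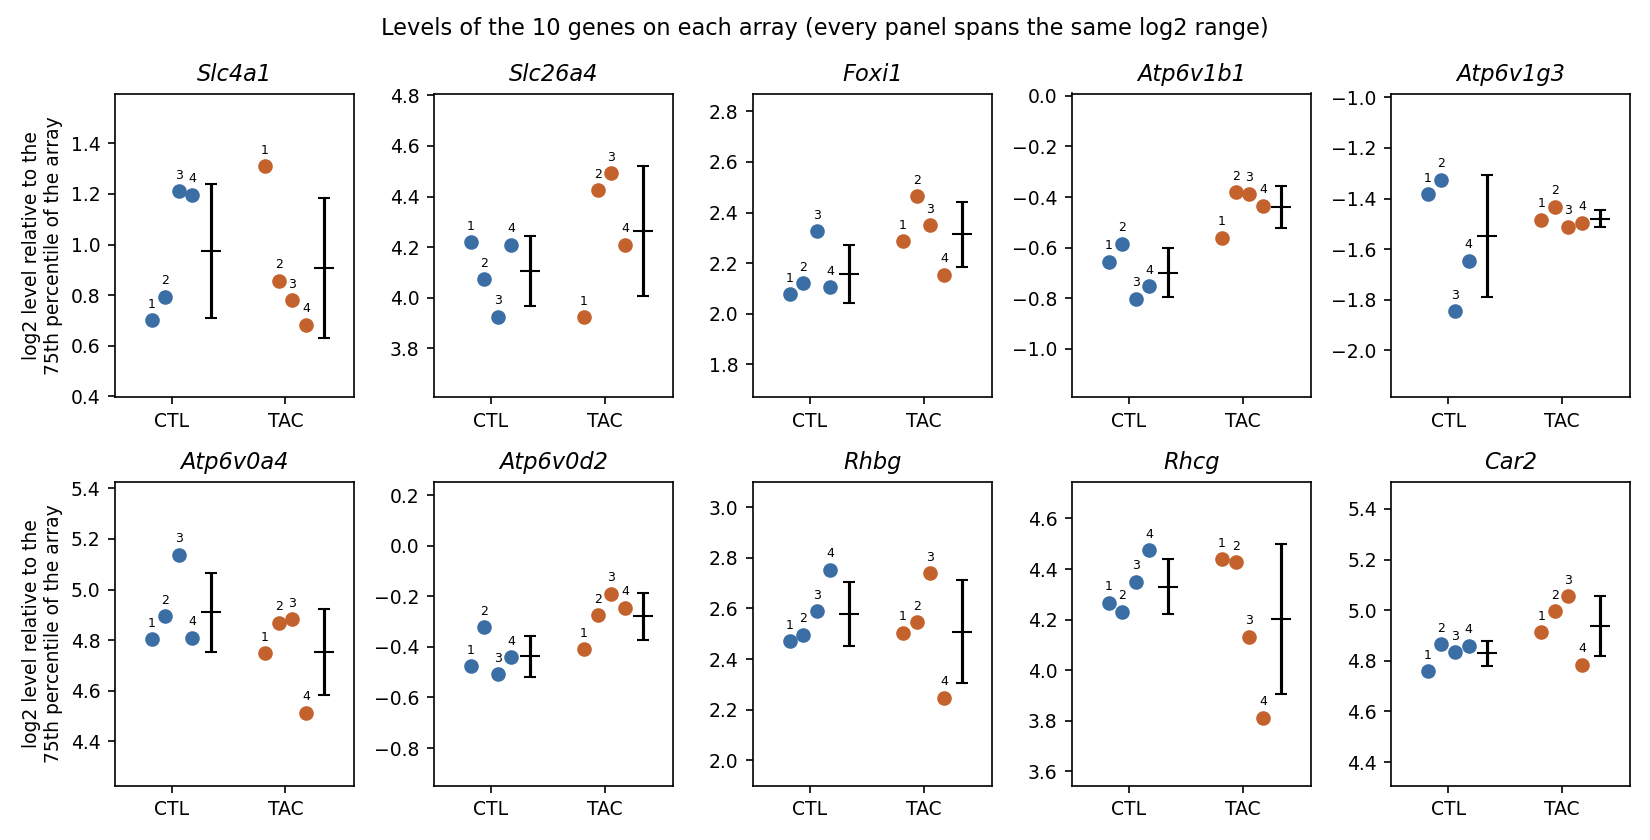
Levels of the 10 genes on each array in log2 units relative to the 75th percentile of the array, with controls in blue, tacrolimus in orange and the replicate number above each point; black bars are the mean ± SD of 4 arrays. The groups overlap in every panel but that of Atp6v1b1, and tacrolimus replicate 4 is the lowest tacrolimus array for 6 genes, Rhcg and Atp6v0a4 among them.

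Slc4a1 encodes the basolateral chloride-bicarbonate exchanger of type A cells, and the same gene gives band 3 of red blood cells. Its levels were 0.70, 0.79, 1.21 and 1.20 on control replicates 1 to 4 and 1.31, 0.86, 0.78 and 0.68 on tacrolimus replicates 1 to 4. The groups overlapped throughout, with the highest and the lowest array both in the tacrolimus group. The means were 0.97 ± 0.27 and 0.91 ± 0.28 (SD, n = 4 each), a difference of -0.07 ± 0.18 (SE) with a 95% interval from -0.47 to 0.34 (adjusted p = 0.883, limma). The sign is not settled, since without control replicate 3, control replicate 4 or tacrolimus replicate 4 the difference was 0.01 each time. A list of red cell genes, put together after these values were seen, had 5 tested members, all 5 below 0 and none called, with a median difference of -0.57. Control replicate 1 was highest in the mean of that list, at 0.66 above the control mean, and lowest of the controls in Slc4a1. The part of blood in the Slc4a1 signal was not tested.

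Slc26a4 encodes pendrin, the apical exchanger of type B cells. It measured 4.22, 4.07, 3.93 and 4.21 on the control arrays and 3.92, 4.43, 4.49 and 4.21 on the tacrolimus arrays. Tacrolimus replicates 2 and 3 were above every control, and replicate 1 was marginally below the lowest of them. The difference was 0.16 ± 0.14 (SE), with an interval from -0.17 to 0.48 and an adjusted p of 0.611 (limma). It was 0.27 without tacrolimus replicate 1, 0.079 without tacrolimus replicate 3, 0.095 without control replicate 3 and 0.10 without tacrolimus replicate 2. The log2 ratio of Slc4a1 to Slc26a4 within an array differed by -0.22 between the groups (exact two-sided permutation p = 0.457). It was -2.61 on tacrolimus replicate 1, which was the highest of all arrays in Slc4a1 and the lowest in Slc26a4, and between -3.71 and -3.52 on the other tacrolimus arrays. Over the alternatives the difference of the ratio ran from -0.47, without tacrolimus replicate 1, to -0.046.

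Foxi1, the forkhead factor, had levels of 2.08, 2.12, 2.33 and 2.11 in controls and 2.29, 2.46, 2.35 and 2.15 under tacrolimus. Control replicate 3 lay among the tacrolimus arrays, and the other controls below all of them. The difference of 0.16 ± 0.10 (SE) had an interval from -0.07 to 0.39 (adjusted p = 0.469, limma; exact permutation p = 0.114). In each of the 18 alternative settings it was positive, between 0.10 and 0.21, and it was called in none.

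The pump itself has a peripheral V1 sector that splits ATP and a membrane V0 sector that carries the protons, and intercalated cells use their own isoforms of several subunits. Atp6v1b1 encodes the B1 subunit of V1, whose loss causes distal renal tubular acidosis with deafness in people. It measured -0.66, -0.59, -0.80 and -0.75 on control replicates 1 to 4 and -0.56, -0.38, -0.39 and -0.43 on tacrolimus replicates 1 to 4. Every tacrolimus array was above every control, with tacrolimus replicate 1 and control replicate 2 the closest to each other. Groups that did not overlap were found for 1 of the 10 genes and for 10.1% of all genes (4.35% higher, 5.75% lower). The means were -0.70 ± 0.10 and -0.44 ± 0.08 (SD, n = 4 each), a 1.20-fold difference with an interval from 1.04 to 1.38. The unadjusted p was 0.0181 and the adjusted p 0.234 (limma), and the exact two-sided permutation p was 0.0286, the smallest that 4 against 4 can give. Under the 18 alternatives the difference stayed between 0.21 and 0.30 and the adjusted p between 0.175 and 0.468.

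Atp6v1g3, the kidney isoform of the G subunit, measured -1.38, -1.32, -1.84 and -1.65 on the control arrays and -1.48, -1.43, -1.51 and -1.50 on the tacrolimus arrays. The tacrolimus arrays lay close together in the middle of a wide control range, with SDs of 0.03 and 0.24 (n = 4 each). The difference was 0.07 ± 0.12 (SE; adjusted p = 0.819, limma), and without control replicate 3 it was -0.03.

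Of the V0 subunits, Atp6v0a4 encodes the a4 isoform, whose loss also causes distal renal tubular acidosis. Its levels were 4.80, 4.89, 5.14 and 4.81 in controls and 4.75, 4.87, 4.88 and 4.51 under tacrolimus. Apart from control replicate 3 at the top and tacrolimus replicate 4 at the bottom, the arrays of both groups lay within the same narrow range. The difference of -0.16 ± 0.12 (SE; adjusted p = 0.539, limma) became -0.08 when either of those 2 arrays was left out, and was -0.071 with quantile normalization and -0.057 in the deposited table.

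Atp6v0d2 encodes the d2 subunit, known from kidney and osteoclasts. The probe printed above gave -0.48, -0.32, -0.51 and -0.44 on the control arrays and -0.41, -0.28, -0.19 and -0.24 on the tacrolimus arrays, a difference of 0.16 ± 0.09 (SE; adjusted p = 0.407, limma). The exact permutation p was 0.0571, and control replicate 2 lay above tacrolimus replicate 1. The further probe gave -0.75, -1.02, -1.14 and -1.23 against -0.89, -0.67, -1.04 and -1.29, a difference of 0.06 ± 0.16 (SE) with overlapping groups. Both probes differed in the same direction, neither was called, and at the further probe tacrolimus replicate 4 was the lowest array where at the first it was the second highest.

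Rhbg, an ammonia transporter of the basolateral membrane, measured 2.47, 2.50, 2.59 and 2.75 in controls and 2.50, 2.55, 2.74 and 2.25 under tacrolimus. Rhcg, which is also found at the apical membrane, measured 4.27, 4.23, 4.35 and 4.48 in controls and 4.44, 4.43, 4.13 and 3.81 under tacrolimus. In both genes the lowest of all 8 arrays was tacrolimus replicate 4, and the remaining tacrolimus arrays lay within the control range, apart from replicate 3 in Rhcg, which was below it. The differences were -0.07 ± 0.12 (SE) for Rhbg and -0.13 ± 0.15 for Rhcg (adjusted p = 0.818 and 0.704, limma). Without tacrolimus replicate 4 they were 0.02 and 0.00155.

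Car2 encodes the cytosolic carbonic anhydrase of intercalated cells, which proximal tubule cells and red cells hold as well. It had the smallest range of the 10 genes over the 8 arrays, with 4.76, 4.87, 4.83 and 4.86 on the control arrays and 4.91, 5.0, 5.06 and 4.78 on the tacrolimus arrays. Tacrolimus replicates 1 to 3 were above every control and replicate 4 was below all controls but 1. The difference was 0.11 ± 0.09 (SE), with an interval from -0.09 to 0.31 (adjusted p = 0.568, limma). It ran from 0.056 with median scaling to 0.19 with quantile normalization, and was 0.069 without tacrolimus replicate 3.

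**Figure D2:**
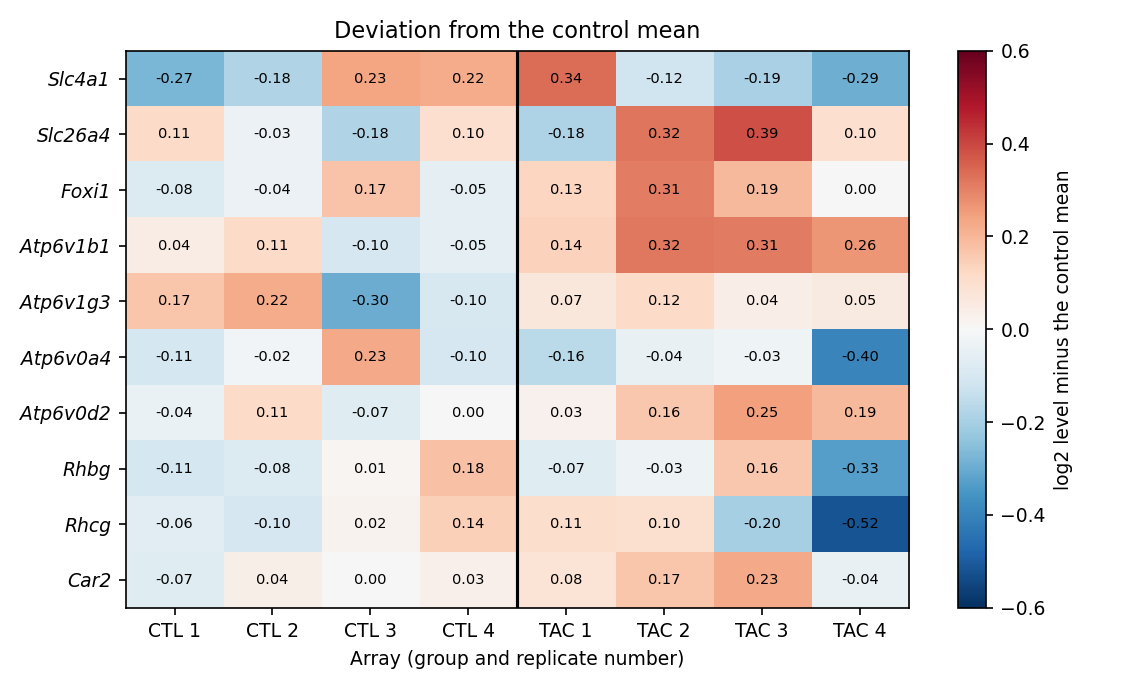
Each gene (rows) on each array (columns) as its log2 level minus the mean of the 4 control arrays, printed in the cell and coloured from blue (lower) to red (higher). Atp6v1b1, Atp6v1g3 and Atp6v0d2 are above the control mean on all tacrolimus arrays, and Atp6v0a4 is below it on all of them. Atp6v0a4, Rhbg and Rhcg are furthest below it on tacrolimus replicate 4, where their levels were 4.51, 2.25 and 3.81.

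Tacrolimus replicate 4 was the lowest array of its group for 6 of the 10 genes (Slc4a1, Foxi1, Atp6v0a4, Rhbg, Rhcg and Car2), as it was for 31.2% of all genes tested. It was the highest of its group for none of the 10, against 30.2% of all genes. Other arrays were uneven as well, with control replicate 1 the lowest control for 5 of the 10 (24.8% of all genes) and tacrolimus replicate 3 the highest tacrolimus array for 5 (29.6%). Without tacrolimus replicate 4, 9 of the 10 differences were above 0 and their median was 0.11, against -0.063 over all genes. Leaving out an array that was the lowest of its group for 6 genes raises their differences by construction. The same array was highest in adipocyte markers, whose 5 tested members had a mean of 6.22 above the control mean there, from 2.53 to 3.47 on the other tacrolimus arrays and from -1.11 to 2.61 on the controls. Of these 5 markers 1 was well above background on every array, so that for the others the low levels, and the distances from them, are bounds rather than measurements. Markers of urothelium, the lining of the renal pelvis, averaged 3.78 above the control mean on tacrolimus replicate 4, 2.18 on replicate 1, and -0.64 and -0.63 on replicates 2 and 3, where the medians of the 4 tested markers were -0.42 and -0.14. One of the 4, Upk2, was well above background on 4 arrays only, so that its low levels are bounds too. Whether admixture of such tissue had a part in the levels of the 10 genes was not tested.

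The genes did not vary as a block from array to array. With the group means taken out, the 45 pairs of genes had a median Pearson r of 0.27 over the 8 arrays, from -0.87 to 0.94, with 28 pairs above 0. The closest pair was Foxi1 with Atp6v0a4 (r = 0.94), followed by Rhbg with Car2 (0.87) and Atp6v1b1 with Atp6v0d2 (0.83). Slc4a1 ran opposite to Atp6v1b1 (-0.87), Atp6v0d2 (-0.69) and Slc26a4 (-0.62). These values describe 8 arrays that share a slide and a scaling step. The pairs named are the highest and the lowest of the 45, and r between pairs of genes outside the 10 was not computed. The 8 gene symbols closest to the mean profile of the 10 genes, among 17057, were Fabp1, Klhl26, Tmem132e, Gabra4, Sall2, Isoc2a, Gm8493 and Sgsm2, with r between 0.960 and 0.976 over the same 8 arrays. None of these 8 is on a list used here, and the closest further intercalated cell gene, Atp6v1c2, stood at position 1244 (r = 0.67). The r of these 8 are the highest picked from 17057 over 8 arrays, so values of this size can come from the picking alone.

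Other genes known from intercalated cells were examined next. Of the 16 on a list of such genes 15 were well above background on all 8 arrays, a share (93.8%) near that of all genes tested (91.6%). All 16 were tested and none was called (limma, lowest adjusted p = 0.187), with 1 under an unadjusted p of 0.05, against 15.5% of all genes. Their median difference was 0.09, with 12 above 0 and 4 below. Slc4a9, the bicarbonate transporter of type B cells, differed by 0.01 ± 0.09 (SE; named after its value was seen). Aqp6, a water channel of intercalated cell vesicles, differed by 0.56 ± 0.27 (SE; adjusted p = 0.353), Kit by 0.23 ± 0.16 and Hmx2, a homeobox factor, by 0.22 ± 0.16. Aqp6 was 0.31 with the mean of its probes, Kit 0.13 without control replicate 2, and Hmx2 0.12 without control replicate 3. Car15, a membrane-bound carbonic anhydrase, was the one below the unadjusted threshold, with 5.70 ± 0.38 in controls and 5.08 ± 0.13 under tacrolimus (SD, n = 4 each), a difference of -0.62 ± 0.19 (SE; adjusted p = 0.187). Its groups did not overlap, and those of Tfcp2l1, a transcription factor, did not overlap in the other direction (0.08 ± 0.07 SE; adjusted p = 0.605, limma; also named after its values were seen). That is 1 lower and 1 higher of 16, where groups did not overlap for 5.75% of all genes lower and 4.35% higher.

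**Figure D3:**
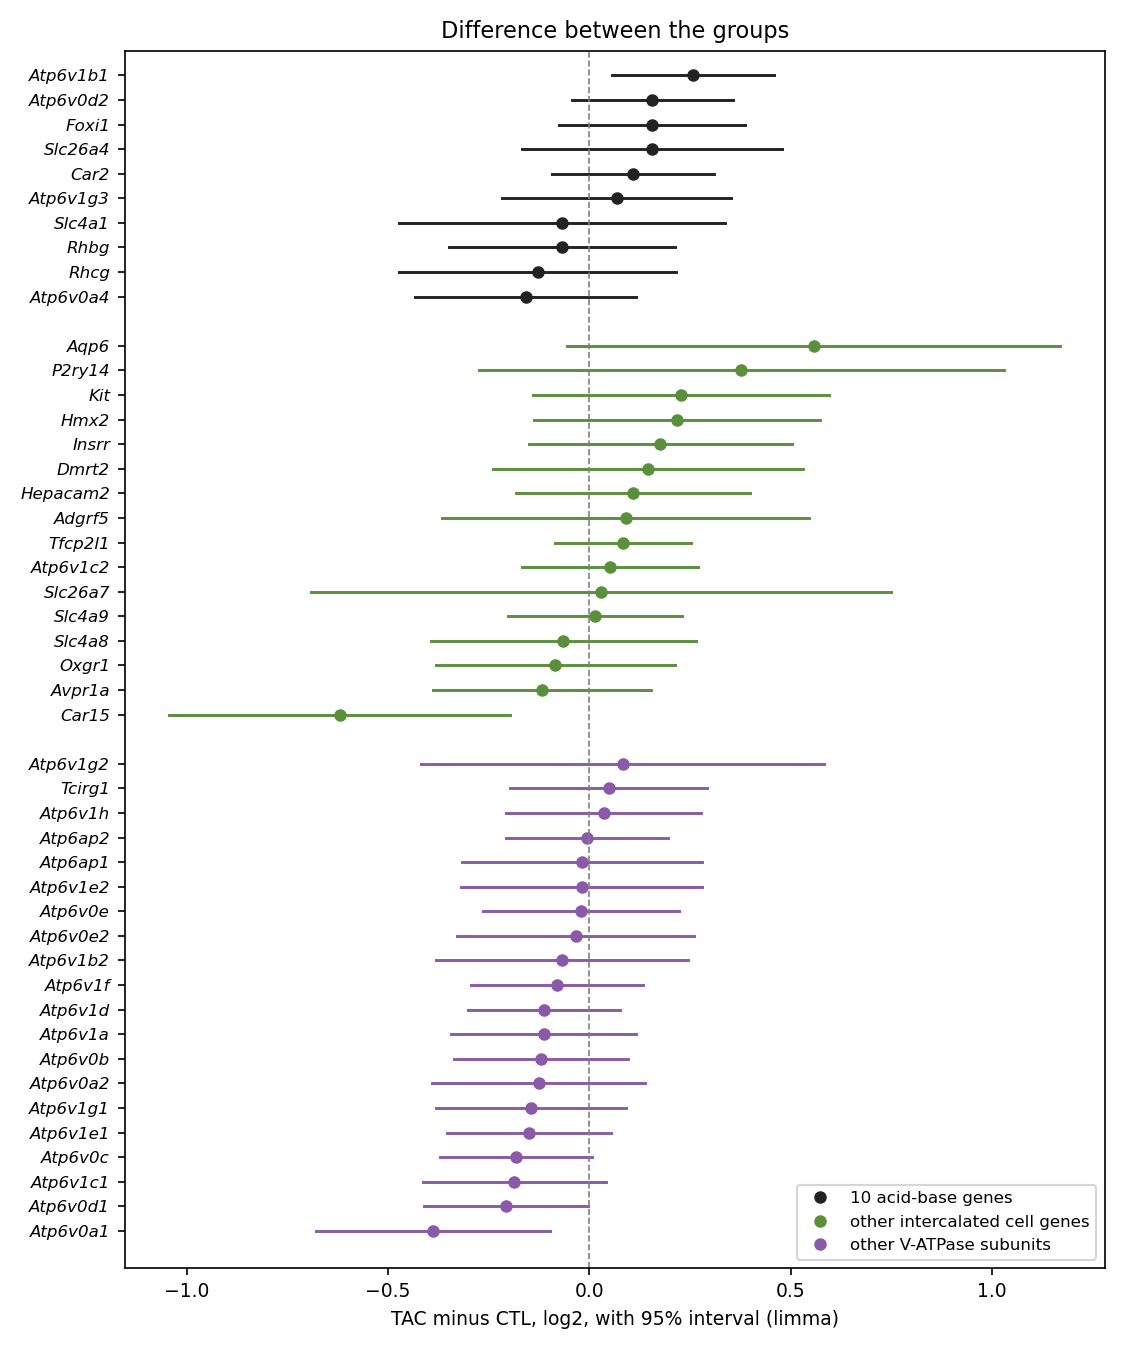
Difference TAC minus CTL in log2 units (points) with the 95% interval from limma (lines) for the 10 acid-base genes, 16 other intercalated cell genes and 20 other V-ATPase subunits. Of the 10 intervals at the top 9 include 0, and 17 of the 20 differences at the bottom lie below 0.

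The other subunits and accessory proteins of the proton pump, most of which all cells use for their lysosomes and vesicles, lay mostly below 0. Of 20 tested, 17 were below 0, where 60.5% of all genes were, with a median of -0.10, none called (limma, lowest adjusted p = 0.222) and 2 under an unadjusted p of 0.05 (15.5% of all genes). These were Atp6v0a1, the widely expressed a subunit, at -0.39 ± 0.13 (SE; adjusted p = 0.222), and Atp6v0d1, the widely expressed d subunit, at -0.21 ± 0.09 (adjusted p = 0.320). Atp6v0c, the proton-carrying ring, differed by -0.18 ± 0.08, and Atp6v1c1 by -0.19 ± 0.10. With the mean of its probes Atp6v0a1 was -0.26 (unadjusted p = 0.0767, limma). In the deposited table Atp6v0d1 was -0.11 and Atp6v0c -0.086. The number below 0 was 13 with quantile normalization, 15 in the deposited table and 19 with median scaling, and it was 12 without tacrolimus replicate 1. How far these subunits lay below all genes depended on the scaling. Their median was -0.10 against -0.05 over all genes in the reported fit, and -0.15 against -0.11 with median scaling. With quantile normalization it was -0.041 against -0.039, and in the deposited table -0.018 against -0.033.

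A ratio of 2 probes on the same array does not depend on the scaling of that array by a constant. The 4 intercalated cell subunits were therefore each set against 1 widely expressed counterpart, a choice made after the values above were seen. The log2 ratio of Atp6v0d2 to Atp6v0d1 was higher under tacrolimus by 0.36 and that of Atp6v1g3 to Atp6v1g1 by 0.21, both with groups that did not overlap. For each the exact permutation test, two-sided, gave p = 0.0286, which is 0.0714 after Benjamini-Hochberg adjustment for the 5 ratios first computed. The ratio of Atp6v1b1 to Atp6v1b2 was higher by 0.32 (exact permutation p = 0.0571, adjusted 0.0952) and that of Atp6v0a4 to Atp6v0a1 by 0.23 (exact permutation p = 0.257, adjusted 0.321). None passed after adjustment, and for the a and G subunits the direction depends on the counterpart chosen. The counterparts were picked with the values known and the adjustment leaves out the further ratios below, so these p-values carry no error rate. Atp6v0a1 and Atp6v0d1 had the lowest unadjusted p of the other subunits, both lower, which by itself raises a ratio to them. The share of all gene pairs with groups that did not overlap was not computed. Set against the other a subunits, Atp6v0a4 gave -0.033 with Atp6v0a2 and -0.21 with Tcirg1, and Atp6v1g3 gave -0.014 with Atp6v1g2, in all 3 cases with overlapping groups. Over the 18 alternatives the first 4 ratios ran from 0.27 to 0.41, 0.093 to 0.25, 0.25 to 0.42 and 0.10 to 0.33, in the order given. With the further probe of Atp6v0d2 its ratio to Atp6v0d1 was 0.27 with overlapping groups (exact permutation p = 0.114). A ratio shows that 2 RNAs differed unequally and not which of them did.

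**Figure D4:**
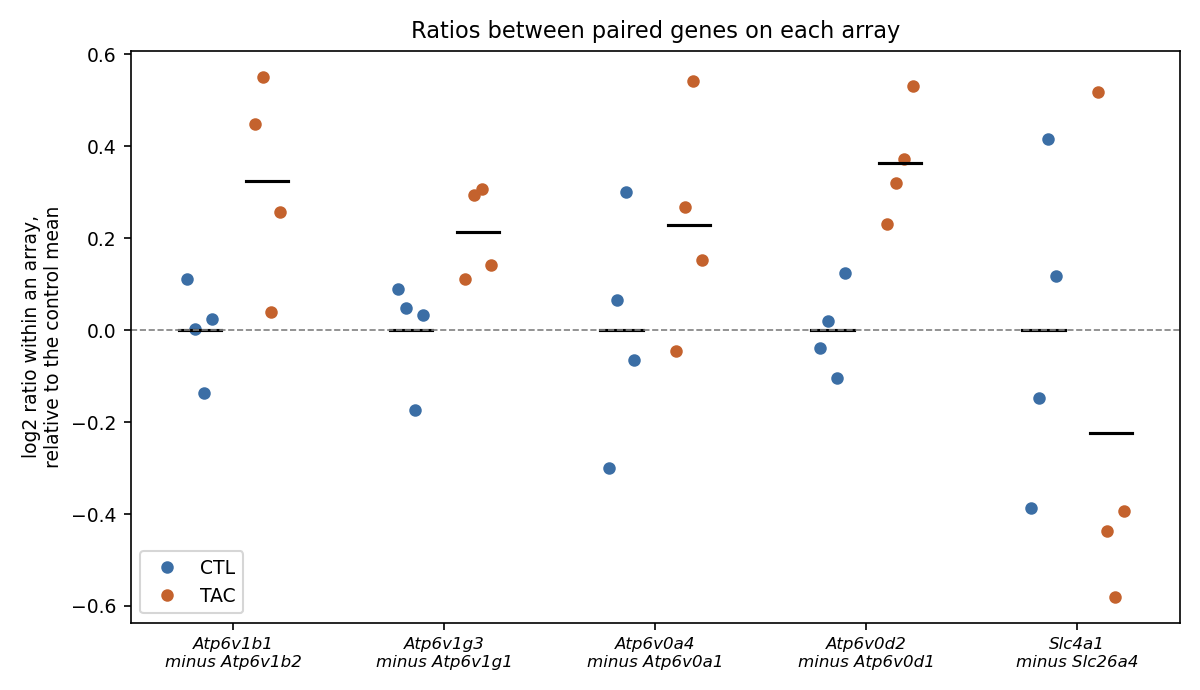
Log2 ratio between 2 genes on the same array, relative to the mean of the 4 control arrays, for 4 pump isoform pairs and for Slc4a1 against Slc26a4; points are arrays (blue CTL, orange TAC) and black lines group means. The tacrolimus mean is above the control mean by 0.21 to 0.36 in the 4 pump pairs plotted, whose counterparts were chosen after the values were seen, and below it by -0.22 in the pair of exchangers.

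Of 20 further genes of renal acid and bicarbonate handling, 10 lay above and 10 below 0, with a median of -0.00263, and none was called (limma, lowest adjusted p = 0.233). Car4, a membrane carbonic anhydrase of the proximal tubule, differed by -0.38 ± 0.13 (SE) and Slc4a7, a sodium-bicarbonate cotransporter, by 0.59 ± 0.20 (adjusted p = 0.233 for both). Pck1, a gluconeogenic enzyme that acid load is known to induce in the proximal tubule, differed by 0.30 ± 0.13 (adjusted p = 0.325).

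Markers of neighbouring cells place these values. Among 10 principal cell genes none was called (lowest adjusted p = 0.267) and the median difference was 0.09. Gata3, a transcription factor of the collecting duct, differed by 0.26 ± 0.10 (SE) and the vasopressin-regulated water channel Aqp2 by -0.40 ± 0.19. Of 8 genes of the distal convoluted and connecting tubule, which lie just before the collecting duct, 5 lay above 0 and 3 below (Egf, Trpv5 and Klk1). At an unadjusted p under 0.05, 3 of the 8 were higher and 0 lower, where 7.04% of all genes were higher. The median difference of the 8 was 0.46, with the calcium-binding protein Calb1 highest at 1.24 ± 0.20 (adjusted p = 0.0552) and the magnesium channel Trpm6 next at 1.07 ± 0.20 (adjusted p = 0.0670). Medians were -0.02 for 8 thick ascending limb genes, -0.10 for 8 proximal tubule genes, -0.10 for 5 podocyte genes and -0.09 for 6 endothelial genes. For 8 myeloid markers the median was 1.19, with 6 higher at an unadjusted p under 0.05 and 1, Itgam, lower. The difference of Itgam was -0.44, and -0.22 with the mean of its probes. No marker on any of these lists was called in this fit, though Calb1 was called in 6 and Trpm6 in 3 of the 18 alternatives, with lowest adjusted p of 0.0255 and 0.0311 (limma, normexp). The myeloid markers Mrc1, C1qa, C1qb and Itgam were called in 6, 5, 4 and 3, and differences between the lists were not tested. Over all genes, 57 (0.227%) were called in this fit and from 7 to 309 in the alternatives. The markers with calls were named for having the lowest unadjusted p of their lists, which puts them nearer the threshold by construction.

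A forkhead core sequence was searched in promoters because Foxi1 is a forkhead factor. RefSeq promoter windows on GRCm38.p6 were at hand for 6 of the 10 genes (Slc26a4, Foxi1, Atp6v1b1, Atp6v1g3, Atp6v0a4 and Rhcg), and the 250 bases before the start site were read on both strands. TGTTTA was found in 1 of the 6, Atp6v1b1, and in 12.0% of all 32851 windows. TGTTTG was found in 1 of the 6, Atp6v1g3, and in 16.0% of all windows. Both windows are shown with the match in capitals, 5′ to 3′ in the direction of the gene. That of Atp6v1b1 is chr6:83742767-83743016 on the plus strand, with the match starting 98 bases before the start site, and that of Atp6v1g3 is chr1:138273488-138273737 on the plus strand, with the reverse complement starting 66 bases before it.
Atp6v1b1: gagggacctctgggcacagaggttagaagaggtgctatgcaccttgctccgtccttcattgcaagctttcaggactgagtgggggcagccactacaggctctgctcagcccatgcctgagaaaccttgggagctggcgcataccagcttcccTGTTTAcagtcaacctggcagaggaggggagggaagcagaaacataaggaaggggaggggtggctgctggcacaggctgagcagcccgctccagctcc
Atp6v1g3: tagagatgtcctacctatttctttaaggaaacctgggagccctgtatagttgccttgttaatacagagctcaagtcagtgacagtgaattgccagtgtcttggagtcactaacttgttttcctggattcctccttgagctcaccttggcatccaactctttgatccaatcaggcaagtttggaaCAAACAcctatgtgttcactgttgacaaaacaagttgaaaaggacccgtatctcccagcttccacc
A match is a description of these letters and does not show a binding site.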

How the data were processed

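Whole-kidney RNA of 4 control and 4 tacrolimus samples was read on 1-colour Agilent arrays, and the groups were taken from the sample labels. The deposited scanner files hold intensity values in linear units, which per the file headers were extracted and background-corrected with Feature Extraction 10.7.3.1. The authors' deposited value table is on a log2 scale, and it equals the log2 of quantile-normalized raw median intensity within 5e-09; the submitters' processing notes name limma. It served as an alternative.

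From the processed intensity, log2 was taken after division by the 75th percentile of the non-control spots of each array. Control spots and spots marked as outliers (147 to 194 per array) were left out, and spots of a probe were averaged. Of 55681 probes, 36493 were brighter than background by the scanner's criterion on 4 or more arrays and were tested, and for 25127 genes and unnamed transcripts the probe with the highest mean stood for the gene. Names follow the scanner files, with 1651 probes renamed among 28026 matched to RefSeq (GRCm38.p6) by accession. Groups were compared with limma (version 3.58.1, under R 4.3.3) by lmFit followed by eBayes. Its two-sided p-values were adjusted over all genes by Benjamini-Hochberg with a threshold of 0.05. The procedure was also run on simulated data, with changes larger than any difference of the acid-base genes, so recovery at their sizes was not checked. Single values also had an exact two-sided permutation test over the 70 assignments of arrays, whose smallest p is 0.0286. Precision is limited by the number of arrays.

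Alternatives were other normalizations and background correction, the filter on dim probes, the mean of a gene's probes, other variance models, array weights, a replicate block and leaving out each array. The 10 genes and all gene lists were chosen with earlier results of these data known. Every one of the 10 genes is named, in each other list up to 4 genes with the lowest unadjusted p, and the 8 symbols closest to the mean profile of the 10 genes; some values this rule picked are not reported here.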

Additional observations from a re-analysis of the deposited data

Results flagged for a closer look

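In 6 of 126 groups of 4 arrays examined (4.76%), 1 array stood apart from the other three by Dixon's criterion, which marks about 1 group in 20 by chance. Of the values of the 10 genes this touched only the within-array log2 ratio of Slc4a1 to Slc26a4, which was -2.61 on tacrolimus replicate 1, above the other tacrolimus arrays. No level of a single one of the 10 genes was marked.

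Among the widely expressed pump subunits, control replicate 1 stood above the other controls in Atp6v0a1 at 3.90 and in Atp6v0c at 5.88. The adipocyte markers Plin1, at -1.44 on tacrolimus replicate 4, and Cidec, at -3.04 on control replicate 2, and the urothelial marker Upk3a, at -3.81 on control replicate 2, each stood above the other arrays of their group.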

How the results depend on the processing

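Over 18 alternatives for each of the 10 genes, 173 of 180 values kept their direction and 0 were called, with a lowest adjusted p (limma) of 0.175 for Atp6v1b1. The other 7 reversed: Slc4a1 was 0.065 with array weights and ran from -0.20 to 0.011 when each array was left out. The same ranges were -0.030 to 0.14 for Atp6v1g3, -0.14 to 0.019 for Rhbg and -0.21 to 0.00155 for Rhcg, and outside the 10 genes -0.10 to 0.084 for Podxl and -0.14 to 2.09 for Upk2. For 46 other genes picked by the naming rule, 27 of 823 alternative values passed the threshold where the reported fit did not. That rule takes the lowest unadjusted p of each list, so these genes lie nearer the threshold than the rest of their lists by construction. The number of all genes called also changed with the setting, as given next.

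The number of genes called among all genes was 57, and it was 285 with normexp, 180 in the deposited table, 32 without the filter on dim probes (34748 genes tested), 151 with a filter on all 8 arrays (23042 tested), 221 with an intensity trend and robust estimation, and 309 with array weights. Leaving out 1 array gave 7 to 56, with 7 without control replicate 2, 13 without control replicate 3 or 4, and 18, 22 and 33 without tacrolimus replicates 1, 2 and 3. Apart from the fewer arrays or the genes tested, the cause was not tested.

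With a replicate block the number was 103, of which 0 were among the 10 genes. The labels do not say that the replicate numbers are pairs, and the reported fit did not use them. Replicate number equals slide column in both rows. Same-numbered arrays correlated in their deviations from the group means at 0.156, 0.0207, 0.143 and 0.0552. Every array correlated best with its own number except tacrolimus replicate 2, which was closer to control replicate 1 (0.0553). Whether slide column or another shared factor lay behind this was not tested.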
